A study of Mus musculus with 6 samples.

Results

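The CDK inhibitors described here are 7 genes, Cdkn1a, Cdkn1b, Cdkn2a, Cdkn2b, Cdkn2c, Cdkn2d and Cdkn3, taken by gene name from 47729 genes measured by RNA sequencing in mouse CD8+ T cells from spleen. The cells were labelled as activated and fell into 2 groups, 3 libraries with vehicle and 3 libraries with blebbistatin at 2 µM for 24 h. Blebbistatin inhibits myosin II, the motor protein that pulls on actin filaments, and the series asks how such a drug for the cytoskeleton affects these cells. The labels give no mouse strain, age, mode of activation or identity of the vehicle. The labels do not say whether libraries came from separate animals or cultures, so the p-values cover the spread between these libraries alone, and that spread may be technical.

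Cyclin-dependent kinases (CDKs) drive a cell from one phase of its cycle to the next, and CDK inhibitors hold them back. The INK4 proteins bind CDK4 and CDK6 and keep D-type cyclins away from them, while the CIP and KIP proteins bind complexes of a cyclin with its CDK, chiefly those of CDK2. In T cells, p27 from Cdkn1b is high at rest and is removed on activation, p18 from Cdkn2c restrains antigen-driven division, and p21 from Cdkn1a is a classical target of the tumour suppressor p53. Cdkn2a is 2 genes in one: from separate first exons it makes p16 INK4A, which binds CDK4 and CDK6, and p19 ARF, which protects p53 from MDM2.

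T cell identity was checked on 8 T cell markers, whose summed level was 3409 to 3427 TPM (the share of a gene among all transcripts of a library, corrected for length) with vehicle and 3415 to 3628 TPM with blebbistatin. The CD4 T cell genes Cd4 and Cd40lg, the B cell genes Ms4a1, Pax5 and Cd22, the myeloid genes Csf1r, Adgre1 and Itgam and the NK cell genes Ncr1 and Klrb1c were under 1 TPM in every library. Other genes of these lists were expressed. The 4 CD4 T cell markers summed to 15.4 to 16.2 TPM with vehicle and 14.2 to 19.1 TPM with blebbistatin. Of the 2 tested, Zbtb7b and Foxp3, 0 passed by limma and 0 had an unadjusted p under 0.05. The 7 NK cell markers summed to 788 to 814 TPM with vehicle and 780 to 803 TPM with blebbistatin, and the 7 myeloid markers to 90.8 to 93.2 TPM and 72.2 to 99.5 TPM. Of 5 tested NK markers 0 passed by limma and 4 had an unadjusted p under 0.05, 2 in each direction, and of 3 tested myeloid markers 0 passed and 1 had such a p. Markers of platelets moved with the groups: 4 of 6 tested (Pf4, Ppbp, Itga2b and Treml1) rose, and the sum of all 8 was 50.9 to 60.0 TPM with vehicle and 113 to 131 TPM with blebbistatin. Of 3 tested B cell markers, H2-Eb1 rose, and the sum of all 8 was 512 to 529 TPM with vehicle and 500 to 527 TPM with blebbistatin. By limma, 22.9% of all tested genes had an unadjusted p under 0.05 and 1.4% rose past the adjusted threshold. The part of cells other than CD8+ T cells in the results on CDK inhibitors was not tested. Each library held an implied 18500000 to 19900000 fragments. On the first principal component (42.8% of the variance) the vehicle libraries lay at -15.5, -13.4 and -16.4, blebbistatin 1 at 30.5, blebbistatin 3 at 14.5 and blebbistatin 2 at 0.23, nearest to vehicle.

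All 7 genes were detected in all 6 libraries, at levels from 0.312 TPM to 402 TPM. With vehicle the order by mean TPM was Cdkn1a at 300.4, Cdkn2d at 75.1, Cdkn2c at 36.9, Cdkn1b at 33.8, Cdkn3 at 29.9, Cdkn2a at 5.91 and Cdkn2b at 1.39, and no 2 neighbours in that order overlapped across the 3 libraries. With blebbistatin Cdkn1a and Cdkn2d stayed at the head, followed by Cdkn1b, Cdkn3 and Cdkn2c, and only Cdkn3 and Cdkn2c overlapped. The lead of Cdkn1a and the order of Cdkn2c, Cdkn1b and Cdkn3 depend on the transcript model. By read depth averaged over all exons of a gene, Cdkn1a (200.3 to 213) and Cdkn2d (201 to 208) overlapped in the vehicle libraries. In the blebbistatin libraries they did not, at 244 to 278 for Cdkn1a and 150 to 220 for Cdkn2d. By the same depth with vehicle, Cdkn1b (65.7 to 71.4) lay below Cdkn3 (77.9 to 86.0), which overlapped Cdkn2c (79.5 to 89.6). With blebbistatin Cdkn1b (74.5 to 81.9) overlapped both Cdkn3 (79.6 to 88.2) and Cdkn2c (52.0 to 78.5).

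**Figure D1:**
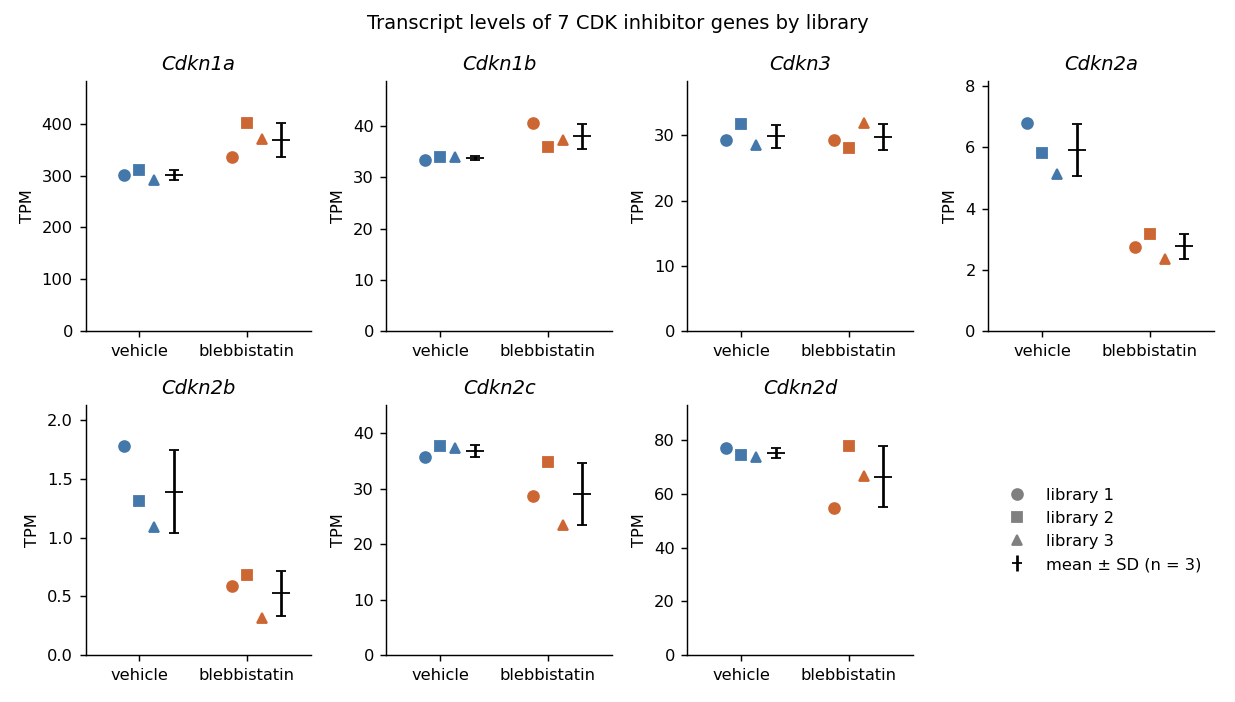
TPM of each of the 7 CDK inhibitor genes (vertical axis, from 0, on its own scale) in the 3 vehicle and 3 blebbistatin libraries, with the mean and SD of each group as a bar. The groups do not overlap for Cdkn1a and Cdkn1b, which are higher with blebbistatin, or for Cdkn2a, Cdkn2b and Cdkn2c, which are lower, and they overlap for Cdkn2d and Cdkn3.

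The groups were compared by limma on log2(TPM + 1) over the 13372 genes whose mean reached 1 TPM, and p-values were adjusted over all of them by the Benjamini-Hochberg method with a threshold of 0.05. Of the 7 genes 6 were tested, since the mean of Cdkn2b was 0.960 TPM. One gene passed, Cdkn2a, which fell, and 0 of 6 rose. Over all tested genes 1.82% passed, 1.4% higher and 0.426% lower (187 and 57 genes), and with length and GC content corrected for the split was 306 higher and 243 lower. The limma fit gave 4 of the 6 an unadjusted p under 0.05, 2 higher and 2 lower, against 22.9% of all tested genes (12.9% higher, 9.99% lower). Groups without overlap were seen for 4 of the 6, 2 in each direction, where 31.0% of all tested genes showed this. The median difference of the 6 was -0.10 and that of all tested genes 0.03 on the log2 scale. In RNA from whole cultures, fewer cells that make a transcript and less of it per cell cannot be told apart.

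**Figure D2:**
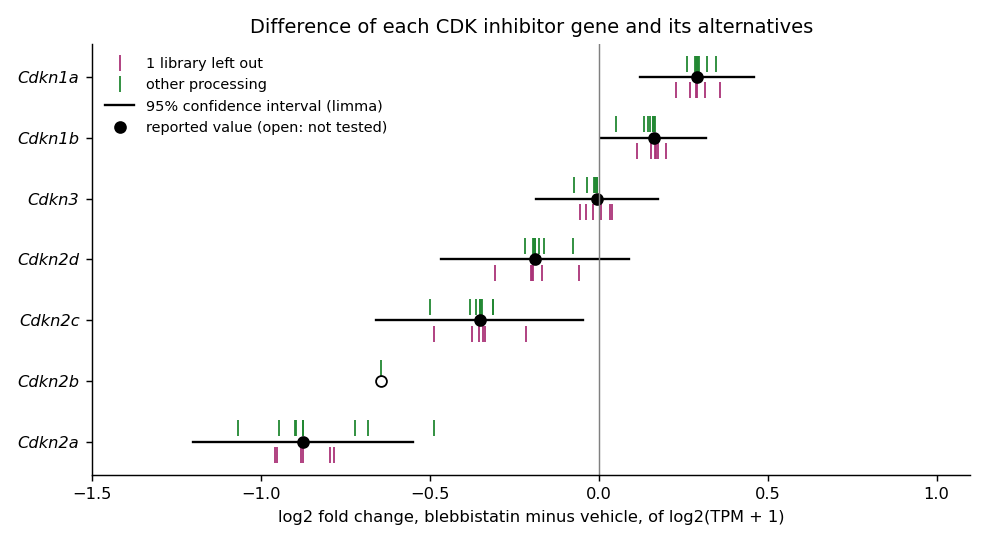
Log2 fold change of log2(TPM + 1), blebbistatin minus vehicle, for each CDK inhibitor gene, with the 95% confidence interval from limma as a line. Ticks give the value with 1 library left out or with other processing, and the open circle marks Cdkn2b, which was not tested. Cdkn2a stands furthest from 0, at -0.87, and Cdkn3 at -0.01 lies on it.

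Among the CIP and KIP genes, Cdkn1a encodes p21 and lies at chr17:29090979-29100722 on the plus strand of GRCm38 (mm10). Its level was 300.1, 310 and 291 TPM in the vehicle libraries and 335, 402 and 369 TPM in the blebbistatin libraries. Every blebbistatin library was above every vehicle library, with blebbistatin 2 the highest. The means were 300.4 ± 9.61 and 369 ± 33.2 TPM (SD, n = 3), a log2 difference of 0.29 (SE 0.07, 95% confidence interval 0.12 to 0.46) that did not pass (limma adjusted p = 0.092). It passed without blebbistatin 1 (limma adjusted p = 0.049), where 0.897% of all genes passed, and once length and GC content were corrected for (limma adjusted p = 0.019), where 4.12% did. Read depth over its exons was 0.244 to 0.266 of what the TPM would give for the full exon length, so its TPM depends on the transcript models used. Which models carried the reads was not tested. In the GENCODE annotation, whose bounds for the gene differ slightly from the deposited ones, 7.68% of its exon bases overlap another annotated locus.

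Because p53 is a known activator of Cdkn1a, the 250 bases before its upstream start are shown, from RefSeq (GRCm38.p6, chr17:29090729-29090978, plus strand), with a p53 response element in capitals.

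Cdkn1a, upstream start: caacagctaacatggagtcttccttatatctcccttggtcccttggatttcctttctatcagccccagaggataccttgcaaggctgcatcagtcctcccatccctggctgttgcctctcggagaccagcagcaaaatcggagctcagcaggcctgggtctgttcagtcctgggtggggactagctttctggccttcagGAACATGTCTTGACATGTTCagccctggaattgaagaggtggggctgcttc

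The element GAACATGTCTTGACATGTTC begins 51 bases before the start. It was found with the p53 motif, a pair of decamers searched on both strands with at most 1 mismatch and no spacer, which matched 25 of 32851 RefSeq windows of the same length (0.0761%). The 250 bases before the downstream start of Cdkn1a, chr17:29093519-29093768, held no match and 2 GC boxes (GGGCGG). A match is a description of these letters, and p53 binding was not measured.

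Cdkn1b, which encodes p27, lies at chr6:134920401-134925513 on the plus strand. Its level was 33.4, 34.0 and 33.9 TPM with vehicle and 40.6, 36.0 and 37.3 TPM with blebbistatin. The vehicle libraries were nearly equal and all lay below the blebbistatin libraries, of which blebbistatin 1 was the highest. The means were 33.8 ± 0.357 and 38.0 ± 2.40 TPM (SD, n = 3), with a log2 difference of 0.16 (SE 0.07, limma adjusted p = 0.206). After correction for length and GC content the difference was 0.05. Cdkn1a and Cdkn1b were thus both higher with blebbistatin in value, and neither passed. Cdkn1c, the remaining KIP gene, which encodes p57, was under 1 TPM in every library.

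Cdkn2a and Cdkn2b are neighbours on the minus strand of chromosome 4, Cdkn2a at chr4:89274471-89294653 and Cdkn2b at chr4:89306289-89311032. Cdkn2a was at 6.80, 5.81 and 5.13 TPM with vehicle and at 2.75, 3.17 and 2.37 TPM with blebbistatin. The lowest vehicle library was well above the highest blebbistatin library. The mean fell from 5.91 ± 0.840 to 2.76 ± 0.404 TPM (SD, n = 3), to 0.468 of the vehicle level. The log2 difference was -0.87 (SE 0.14, 95% confidence interval -1.20 to -0.55, limma adjusted p = 0.037). These levels rest on few reads, about 53.6, 46.6 and 42.9 fragments with vehicle and 22.5, 26.8 and 19.4 with blebbistatin, at 300 aligned bases a fragment. The call did not hold with no minimum level (limma adjusted p = 0.099, 0.197% of all genes past the threshold) or without any 1 of vehicle 1, vehicle 2, vehicle 3, blebbistatin 1 or blebbistatin 3 (limma adjusted p from 0.070 to 0.150, log2 differences -0.96 to -0.78). A pseudocount of 5 gave a log2 difference of -0.49 and one of 0.1 gave -1.07.

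Cdkn2b encodes p15, an INK4 protein known to respond to transforming growth factor beta. It was at 1.78, 1.31 and 1.09 TPM with vehicle and at 0.589, 0.680 and 0.312 TPM with blebbistatin. The groups did not overlap, and the mean of 0.527 ± 0.192 TPM was 0.378 of the vehicle mean of 1.39 ± 0.352 TPM (SD, n = 3). The 2-sided exact permutation p was 0.1, the smallest that 3 libraries against 3 can give, and in a fit with no minimum level the limma adjusted p was 0.168. Among 2995 genes with a mean of 0.5 to 2 TPM, 4.57% were lower with no overlap. The values stand on about 14.2 to 21.9 fragments a vehicle library and 3.99 to 8.93 a blebbistatin library. Cdkn2a and Cdkn2b transcripts share no identical run longer than 23 bases, and neither has exons that overlap another annotated gene.

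The nearby gene Mtap, a methylthioadenosine phosphorylase named here after its values were seen, was at 79.8, 75.4 and 75.7 TPM with vehicle and at 73.7, 66.7 and 67.3 TPM with blebbistatin. Its means were 76.9 ± 2.44 and 69.3 ± 3.90 TPM (SD, n = 3), a log2 difference of -0.15 that did not pass (limma adjusted p = 0.205).

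The start sites that Cdkn2a and Cdkn2b can use differ in composition, and the 250 bases before each are shown from RefSeq (GRCm38.p6, minus strand). They lie at chr4:89294620-89294869 for the Arf first exon, chr4:89282193-89282442 for the Ink4a first exon and chr4:89311033-89311282 for Cdkn2b. In the GENCODE annotation the Arf and Cdkn2b transcripts begin inside these windows, at chr4:89294653 and chr4:89311039. Capitals mark an E2F motif in the Arf window and a cell cycle homology region (CHR) in the Cdkn2b window.

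Cdkn2a, Arf first exon: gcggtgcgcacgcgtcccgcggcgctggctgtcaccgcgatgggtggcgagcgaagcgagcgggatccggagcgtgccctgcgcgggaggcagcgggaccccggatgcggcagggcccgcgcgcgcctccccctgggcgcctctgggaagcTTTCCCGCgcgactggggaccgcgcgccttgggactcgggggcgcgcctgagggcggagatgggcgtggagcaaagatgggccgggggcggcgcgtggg
Cdkn2a, Ink4a first exon: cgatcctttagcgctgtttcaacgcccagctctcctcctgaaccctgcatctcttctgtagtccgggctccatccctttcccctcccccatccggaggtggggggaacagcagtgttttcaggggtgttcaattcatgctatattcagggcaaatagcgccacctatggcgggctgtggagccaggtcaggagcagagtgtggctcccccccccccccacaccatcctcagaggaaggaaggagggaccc
Cdkn2b: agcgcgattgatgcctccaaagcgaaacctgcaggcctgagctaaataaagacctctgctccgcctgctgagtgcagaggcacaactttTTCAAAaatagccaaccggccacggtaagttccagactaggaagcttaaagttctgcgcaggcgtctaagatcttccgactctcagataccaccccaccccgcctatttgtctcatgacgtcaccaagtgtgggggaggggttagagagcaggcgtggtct

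The Arf window is 78.4% G and C and holds 1 E2F motif, TTTCCCGC, 99 bases before the RefSeq start, and 2 GC boxes, 48 and 14 bases before it. Motifs TTTCCCGC, TTTCGCGC, TTTGCCGC and TTTGGCGC, searched on both strands, matched 1.86% of the 32851 windows. The Ink4a window is 60.0% G and C and held none of the p53, E2F, CHR, CCAAT, FOXO (TGTTTAC) or GC box motifs searched. The Cdkn2b window is 53.6% G and C and has a CHR (TTTGAA, here on the other strand as TTCAAA) 161 bases before the start, a motif found in 16.0% of windows. The median window of all genes is 52.4% G and C.

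Which first exon the Cdkn2a reads came from was estimated from the ratio of read depth to FPKM, which depends on the length of the transcript that carries the reads. The estimate assumes that only the 2 annotated transcripts carry reads. The annotated Arf transcript is 895 bases long, the Ink4a transcript 852 bases and their union 1172 bases. The implied share of the Arf form was 89.0%, 91.9% and 87.6% with vehicle and 99.9995%, 94.2% and 92.2% with blebbistatin. In TPM the Arf form stood at 6.05, 5.34 and 4.49 with vehicle and at 2.75, 2.99 and 2.18 with blebbistatin, with no overlap. The Ink4a form was at 0.748, 0.468 and 0.635 TPM with vehicle and at 0.0, 0.186 and 0.185 TPM with blebbistatin. Under that assumption the Arf form made up most of the Cdkn2a level in each of the 6 libraries, and its lower level was the larger part of the gene's fall in TPM. The lengths are so close that 0.1% of the ratio moves the share by about 2.07 points. Of 647 genes with 2 transcripts 93.5% gave ratios within the bounds of this model in all 6 libraries, and no test was made of the shares.

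**Figure D3:**
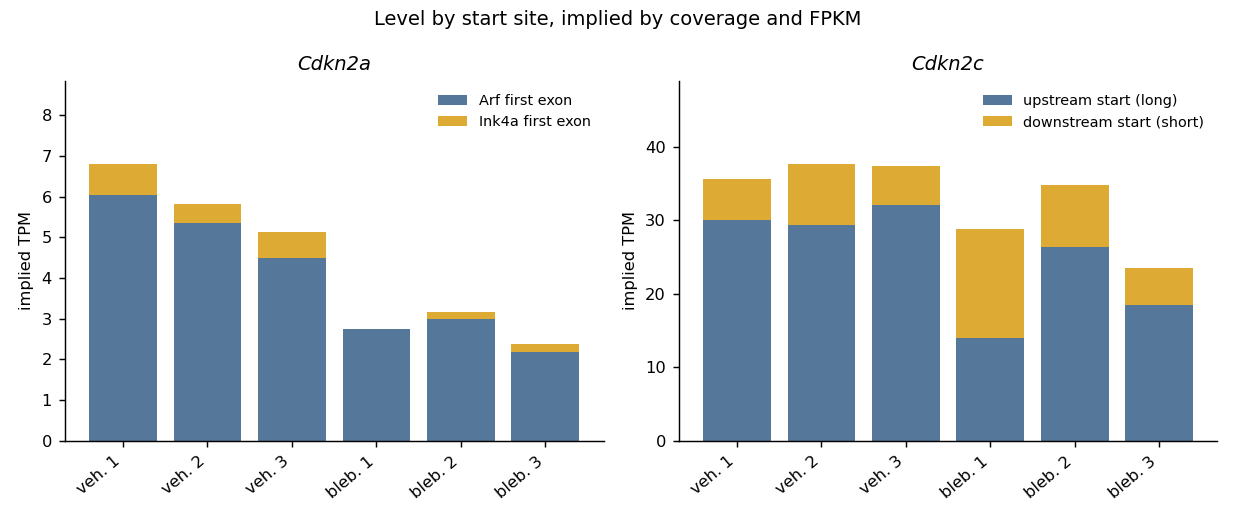
Implied TPM by start site in each library (veh., vehicle; bleb., blebbistatin) for Cdkn2a (left) and Cdkn2c (right), from deposited coverage and FPKM, with the 2 starts stacked so that a bar's height is the gene's TPM. The Arf form fills most of each Cdkn2a bar, and the downstream start of Cdkn2c is largest in blebbistatin 1, at 14.7 TPM.

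Cdkn2c encodes p18 and lies at chr4:109660876-109667189 on the minus strand. It was at 35.7, 37.6 and 37.4 TPM with vehicle and at 28.8, 34.7 and 23.5 TPM with blebbistatin. The vehicle libraries were close together and the blebbistatin libraries spread below them, with blebbistatin 2 nearest to vehicle. The means were 36.9 ± 1.08 and 29.0 ± 5.60 TPM (SD, n = 3). The log2 difference of -0.35 (SE 0.13, 95% confidence interval -0.66 to -0.05) did not pass (limma adjusted p = 0.179). It passed without blebbistatin 2 (log2 difference -0.49, limma adjusted p = 0.038), where 8.15% of all genes did, and without blebbistatin 3 it was -0.22.

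Cdkn2c has an upstream start with a long transcript of 2471 bases and a downstream start with a short one of 1106 bases. The windows before them are shown because their make-up differs and the implied use of the starts varied between libraries. They lie at chr4:109666757-109667006 and chr4:109665373-109665622 (RefSeq GRCm38.p6, minus strand), and capitals mark GC boxes. The long transcript of 2471 bases, from the GENCODE annotation, begins further upstream, at chr4:109667189. The upstream window thus lies inside the span of that transcript, and the bases before its GENCODE start are not shown.

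Cdkn2c, upstream start: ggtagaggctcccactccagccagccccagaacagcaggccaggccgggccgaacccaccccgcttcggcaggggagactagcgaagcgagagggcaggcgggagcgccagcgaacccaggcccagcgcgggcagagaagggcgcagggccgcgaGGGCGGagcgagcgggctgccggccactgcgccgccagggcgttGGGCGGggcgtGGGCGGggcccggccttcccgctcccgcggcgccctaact
Cdkn2c, downstream start: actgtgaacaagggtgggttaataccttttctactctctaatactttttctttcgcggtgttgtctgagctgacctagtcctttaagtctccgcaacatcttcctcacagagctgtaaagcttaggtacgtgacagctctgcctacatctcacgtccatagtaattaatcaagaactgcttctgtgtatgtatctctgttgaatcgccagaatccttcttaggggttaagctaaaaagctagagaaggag

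The upstream window is 77.2% G and C with 3 GC boxes (GGGCGG, both strands searched, present in 32.7% of windows). The downstream window is 42.8% G and C and held none of the motifs searched. The implied share of the long form was 84.1%, 78.1% and 86.0% with vehicle and 48.7%, 75.9% and 78.3% with blebbistatin. Blebbistatin 1 stood apart, with 14.0 TPM of the long form and 14.7 TPM of the short form. The long form was at 30.0, 29.4 and 32.1 TPM with vehicle and at 14.0, 26.4 and 18.5 TPM with blebbistatin, with no overlap. The short form was at 5.66, 8.25 and 5.22 TPM with vehicle and at 14.7, 8.36 and 5.10 TPM with blebbistatin, which overlapped. These values also assume that only the 2 annotated transcripts carry reads, and no test was made.

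Cdkn2d, which encodes p19 INK4D and should not be taken for the ARF product of Cdkn2a, lies at chr9:21288463-21291209 on the minus strand. It was at 77.2, 74.4 and 73.6 TPM with vehicle and at 54.8, 77.7 and 66.7 TPM with blebbistatin. Blebbistatin 2 was above all vehicle libraries and blebbistatin 1 was far below them, so the groups overlapped. The log2 difference was -0.19 (SE 0.12, 95% confidence interval -0.47 to 0.09, limma adjusted p = 0.371), with -0.06 without blebbistatin 1 and -0.31 without blebbistatin 2.

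Cdkn3 encodes a phosphatase that removes the activating phosphate from CDK2 and shares no fold with the CIP, KIP or INK4 proteins. It lies at chr14:46760541-46771525 on the plus strand. Its level was 29.3, 31.8 and 28.5 TPM with vehicle and 29.2, 28.1 and 31.9 TPM with blebbistatin. The groups were interleaved, and the log2 difference was -0.01 (SE 0.08, 95% confidence interval -0.19 to 0.18, limma adjusted p = 0.975), with a sign that turned when some libraries were left out. Its promoter window held 1 CHR and 3 CCAAT boxes (CCAAT, found in 33.8% of windows), elements that many genes of late cell cycle phases carry.

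The make-up of the summed transcript level of the 7 genes shifted from INK4 toward CIP and KIP in value. Cdkn1a and Cdkn1b together were at 334 ± 9.69 TPM with vehicle and at 407 ± 30.8 TPM with blebbistatin (SD, n = 3), and the groups did not overlap. Cdkn2a, Cdkn2b, Cdkn2c and Cdkn2d together were at 121, 119 and 117 TPM with vehicle and at 86.9, 116.3 and 93.0 TPM with blebbistatin. Their share of the sum of 7 was 24.7% ± 0.536 with vehicle and 18.4% ± 1.39 with blebbistatin (SD, n = 3). That of Cdkn1a was 61.8% to 62.6% with vehicle and 68.1% to 69.5% with blebbistatin. The ratio of Cdkn1a to Cdkn2c was 7.79 to 8.42 with vehicle and 11.6 to 15.7 with blebbistatin. Both shares and this ratio did not overlap between groups. For this ratio, and for the sum of Cdkn1a and Cdkn1b, that follows from the single genes, whose groups did not overlap. It adds nothing to their values. The sum of all 7 genes, at 470 to 495 TPM and 492 to 582 TPM, did overlap, as did that of Cdkn2c and Cdkn2d, at 111 to 113 TPM and 83.6 to 112 TPM. The ratio of Cdkn1a to Cdkn1b, at 8.58 to 9.11 and 8.26 to 11.2, and the TPM of the 4 INK4 genes per 100 TPM of Cdk4 and Cdk6, at 28.5 to 31.0 and 25.3 to 30.2, overlapped as well. The TPM of Cdkn1a depends on the transcript model. Cdkn1a makes up most of the sum with Cdkn1b and of the sum of 7, so it weighs on the shares and on both of its ratios. None of these sums, shares and ratios was tested. The partners of the INK4 proteins, Cdk4 and Cdk6, summed to 398 ± 11.1 TPM with vehicle and 362 ± 21.6 TPM with blebbistatin (SD, n = 3).

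The blebbistatin libraries did not order the genes alike. Measured from the vehicle mean on the log2(TPM + 1) scale, blebbistatin 1, 2 and 3 lay at 0.16, 0.42 and 0.30 for Cdkn1a and at 0.26, 0.09 and 0.14 for Cdkn1b. Blebbistatin 2 was thus the highest library for Cdkn1a and the lowest of its group for Cdkn1b. The same differences were -0.87, -0.72 and -1.03 for Cdkn2a, -0.58, -0.50 and -0.86 for Cdkn2b, -0.35, -0.08 and -0.63 for Cdkn2c and -0.45, 0.05 and -0.17 for Cdkn2d. In all 4 INK4 genes blebbistatin 2, which lay nearest to vehicle on the first principal component, was also the nearest to the vehicle mean in value.

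None of the kinases and cyclins that these proteins bind passed the test. Cdk2, the main partner of p21 and p27, was at 87.7 ± 2.54 TPM with vehicle and at 76.5 ± 0.583 TPM with blebbistatin, a log2 difference of -0.19 with no overlap (limma adjusted p = 0.102). Cdk4 was at 284 ± 9.29 and 258 ± 2.66 TPM, Cdk6 at 114 and 103 TPM and Cdk1, the mitotic kinase, at 102 and 96.4 TPM. Of the D-type cyclins, Ccnd2 was at 192 and 217 TPM, Ccnd3 varied widely at 164 ± 68.6 and 111 ± 25.7 TPM, and Ccnd1 was under the minimum level at 0.879 and 0.700 TPM. The E-type cyclins, which act with CDK2, were at 116 and 100.04 TPM for Ccne1 and at 56.8 TPM in both groups for Ccne2, and Ccna2 was at 225 ± 21.2 and 186 ± 9.15 TPM. In the list of 12 CDKs and their activators 0 passed by limma, 4 had an unadjusted p under 0.05, all lower, and 11 lay below 0. Over all tested genes 9.99% were lower at an unadjusted p under 0.05, and 5999 of 13372 lay below 0. That list's member of highest level was Cks2, at 297 and 278 TPM. In the cyclin list 7 of 9 were tested and 0 passed by limma, with 3 at an unadjusted p under 0.05, 1 higher and 2 lower.

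Downstream of the kinases lie the RB proteins, which CDKs phosphorylate, and the E2F factors that RB proteins restrain. Of 13 genes in this list 1 passed, Rbl2, the pocket protein p130 of resting cells, which rose from 44.7 ± 1.74 to 60.1 ± 5.15 TPM (SD, n = 3). Its log2 difference was 0.42 (limma adjusted p = 0.048), and the call was lost without any 1 library other than blebbistatin 2 (limma adjusted p 0.064 to 0.170). It was also lost with median-ratio or quantile scaling (limma adjusted p = 0.054 in both), no mean-variance trend (0.079) and no minimum level (0.095). Of 18 S-phase target genes of E2F 0 passed by limma and 9 had an unadjusted p under 0.05, all lower. In that list 17 lay below 0, 11 were lower with no overlap, against 13.0% of all tested genes, and the median was -0.15. The 18 genes summed to 4596 to 4637 TPM with vehicle and to 4166 to 4184 TPM with blebbistatin. Pcna, the DNA polymerase clamp, was the highest of them at 944 ± 7.50 and 830.4 ± 17.4 TPM (limma adjusted p = 0.078).

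Cdkn1a is one of many targets of p53, and in a list of 25 genes, p53 and its other targets, 15 rose and 0 fell by limma, against 1.82% of all tested genes that passed. By an unadjusted p under 0.05, 17 were higher and 1 lower, and the median was 0.49. Trp53, the gene of p53 itself, was at 221 ± 17.9 TPM with vehicle and at 214 ± 20.6 TPM with blebbistatin (SD, n = 3), a log2 difference of -0.05 that did not pass (limma adjusted p = 0.757). This list was drawn up with earlier results of these data known and is not independent evidence of its direction. Ccng1, a cyclin G, rose from 323 to 478 TPM (log2 difference 0.56, limma adjusted p = 0.017). Psrc1, a spindle protein, rose from 94.7 to 139 TPM (0.55, limma adjusted p = 0.015). Ei24 rose from 91.2 to 135 TPM (0.56, limma adjusted p = 0.024). Cdkn1a at 0.29 lay below the median of this list. Past the limma threshold were 3 of the 25 genes without any 1 vehicle library, where 7 to 13 of all tested genes passed. Ccng1, Psrc1 and Ei24 were not among them (limma adjusted p 0.060 to 0.104). Without blebbistatin 3 it was 0 of the 25 and 3 of all tested genes, with 18 of the 25 at an unadjusted p under 0.05. With no minimum level it was 8 of the 25 and 49 of all. There Ccng1 (limma adjusted p = 0.052) and Ei24 (limma adjusted p = 0.059) did not pass.

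Of 15 tested FOXO factors and genes of quiescence, a state in which p27 is high, 1 rose, Btg1, an antiproliferative gene, from 36.0 ± 0.456 to 52.8 ± 3.33 TPM (SD, n = 3), with a log2 difference of 0.54 (limma adjusted p = 0.020). The call was lost without any 1 vehicle library or without blebbistatin 3 (limma adjusted p 0.084 to 0.104). In this list 10 of 15 were higher with no overlap, against 18.0% of all tested genes, and the median was 0.28. No promoter window of the 7 CDK inhibitors held the FOXO motif, which was in 3.17% of all windows.

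Genes that act on the Cdkn2a locus, including Polycomb proteins and transcription factors, were listed together with Npm1, whose protein binds the ARF product. This list gave 0 of 20 tested past the threshold by limma and 3 at an unadjusted p under 0.05, with 8 above 0 and 12 below. Npm1, a nucleolar partner of ARF, was at 2791 ± 10.9 and 2871 ± 252 TPM (SD, n = 3), a log2 difference of 0.04 that was -0.11 with length and GC content corrected for. Of 13 genes for the turnover of CIP and KIP proteins 0 passed and 3 had an unadjusted p under 0.05 in limma, and Ddb1, part of a ubiquitin ligase, was at 311 ± 6.76 and 327 ± 7.09 TPM. Among 13 tested genes of other brakes on CDKs 0 passed and 2 had an unadjusted p under 0.05 in limma, and 11 lay below 0. Cdkn2aipnl, the highest of these, was at 118 ± 5.93 and 114 ± 7.45 TPM. For comparison with these 3 lists, 22.9% of all tested genes had an unadjusted p under 0.05 in limma, and 5999 of 13372 lay below 0.

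**Figure D4:**
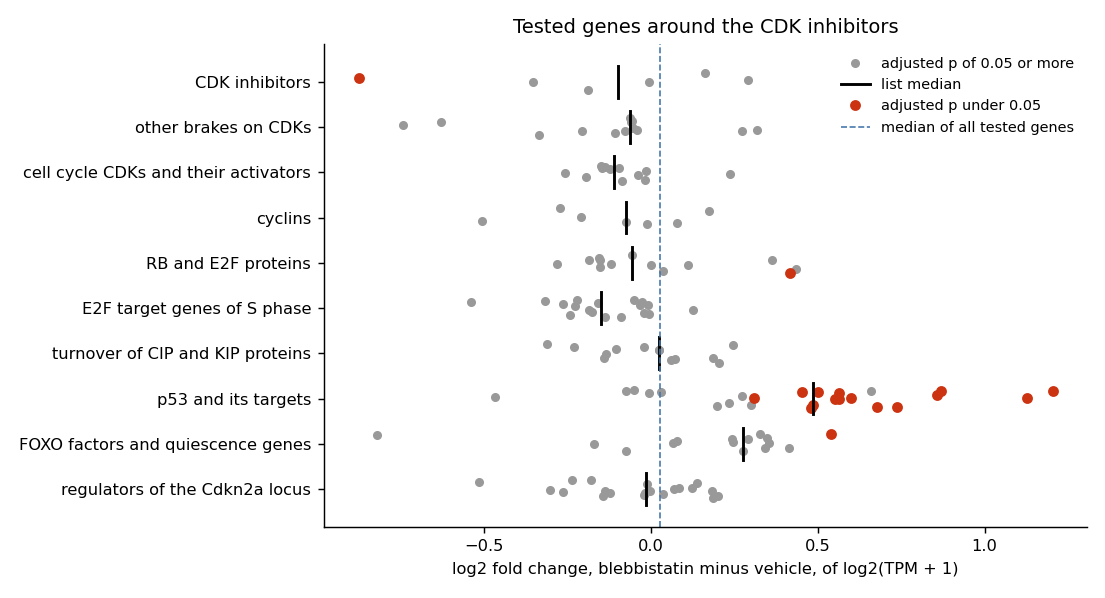
Log2 fold change of log2(TPM + 1), blebbistatin minus vehicle, for each tested gene (points) of the CDK inhibitors and 9 lists around them, with list medians as bars and the median of all tested genes, 0.03, as a dashed line. Red points passed the adjusted threshold of 0.05, and 15 of these are in the p53 list.

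The genes whose profiles lay nearest to a member's were found by the root mean square difference of log2(TPM + 1) over the 6 libraries, each gene centred on its own mean, among 8945 protein-coding genes. For Cdkn1a, whose own root mean square about its mean was 0.166, they were Gtse1 at 0.0260, Frmd4b at 0.0298 and St14 at 0.0320. For Cdkn2c, at 0.237 about its mean, they were Dennd4b at 0.0558, Apobr at 0.0698 and Hbegf at 0.0719. Cdkn2a was added after its values were seen, and its nearest were Map6 at 0.115, Lgals3 at 0.137 and Sapcd2 at 0.152, against 0.458 for Cdkn2a about its own mean.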

How the data were processed

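RNA was measured in 6 libraries. The build mm10, StringTie 1.3.4, HISAT2 2.1.0 and DESeq2 1.22.2 are named, without their roles, per the submitters' processing notes. The TPM values, made by the authors and deposited per gene, were the main measure. The FPKM values were made by the authors as well. The deposited coverage, a signal of mean read depth per gene, is not normalized. The tables hold no counts, so depth was read from coverage over FPKM (5.54 to 5.98), taking as 1 fragment the commonest number of aligned bases in low genes, 300.

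The groups were compared in R 4.3.3 with limma 3.58.1, fitted to log2(TPM + 1) of genes whose mean reached 1 TPM, along a mean-variance trend and without a block. Adding 1 understates changes of low genes. Same-numbered libraries of the 2 groups were not treated as pairs. The members, gene lists, tests and naming rule were chosen with earlier results of these data known. The rule names all members, the CDKs and cyclins they bind, up to 3 genes past the threshold in each list (highest TPM first, or the highest gene where none passed) and the 3 nearest profiles of 2 members. Gene positions are the deposited ones, and transcript lengths came from GENCODE for GRCm38. Promoter windows came from RefSeq GRCm38.p6 (7 of 7 genes matched, 10 windows), whose start sites differ from those of GENCODE for some transcripts. Reads of overlapping genes cannot be told apart by strand, since the kit does not mark it. Figures were drawn with matplotlib 3.10.9.

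On simulated data for blebbistatin against vehicle (13372 genes), limma recovered 62% of genes changed 1.5-fold and 83% of those changed 2-fold, with 10 false calls, and made 0 calls with no change simulated. The means of the changed genes were all 5 TPM or more, so recovery at the level of Cdkn2a was not tested. The simulation drew independent noise with the same spread of a gene in both groups. The real blebbistatin libraries were less alike, correlating at 0.9825 to 0.9887 against 0.9903 to 0.9912 within vehicle. The simulated false calls therefore do not give the rate of false calls in these data. Alternatives covered pseudocounts of 0.1 and 5, minimum levels, FPKM, scaling, limma options, a length and GC correction, a replicate block and each library left out. Gene coverage in place of TPM was added after the data were seen.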

Additional observations from a re-analysis of the deposited data

How the results depend on the processing

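Of 108 values of the CDK inhibitor genes under alternatives, 95 kept their direction and side of the threshold, 7 lost the call, 3 gained one and 3 turned direction. Those 3 were of Cdkn3, at -0.01 as reported, which was 0.039 without vehicle 2, 0.0060 without blebbistatin 1 and 0.033 without blebbistatin 2, and ranged from -0.056 to 0.039 with 1 library left out. For the 11 other named genes tested these numbers were 161, 32, 3 and 2 of 198. Those 2 were of Npm1, which was -0.11 with the length and GC correction and -0.029 without blebbistatin 1, and ranged from -0.029 to 0.096 with 1 library left out. Cdkn2a lay between -1.07 and -0.49 on the log2 scale, and Cdkn2b could be fitted only with no minimum level. With about 19.4 to 53.6 fragments of Cdkn2a a library, counting error limits what can be said of it, and more so for Cdkn2b.

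The number of CDK inhibitor genes past the threshold, 1 as reported, was 0 with no minimum level, 0 with a mean of at least 5 TPM (where Cdkn2a is not tested), 2 with the length and GC correction, and 0 to 2 with 1 library left out. Leaving out blebbistatin 1 kept the number at 1 but the gene was Cdkn1a, and leaving out blebbistatin 2 gave Cdkn2a and Cdkn2c. For all tested genes, 244 as reported, it was 49 with no minimum level, 160 with no mean-variance trend, 549 with the length and GC correction and 3 to 1090 with 1 library left out. The 1090 came without blebbistatin 2, with 496 higher and 594 lower. The calls split into 187 higher and 57 lower as reported, and into 306 higher and 243 lower with the length and GC correction.

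With replicate number as a block, 0 of 13372 genes passed in limma, CDK inhibitors, RB and E2F proteins, p53 targets and quiescence genes included (0 each), while 2628 had an unadjusted p under 0.05, 3 of them CDK inhibitors. Deviations of same-numbered libraries from their group means correlated at 0.011, -0.037 and -0.034. Those of differently numbered libraries correlated at -0.030 to 0.059. With 3 libraries a group these values cannot show whether same-numbered libraries shared an animal, culture or batch, and the labels do not say.

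With the length and GC correction the number past the threshold was 1 for other brakes on CDKs, 1 for CDKs and their activators, 2 for cyclins, 3 for RB and E2F proteins, 5 for S-phase targets of E2F and 5 for quiescence genes. With gene coverage in place of TPM it was 1 for cyclins, 2 for RB and E2F proteins and 3 for quiescence genes. RB and E2F proteins gave 0 with no minimum level, 0 with quantile scaling and 0 with no mean-variance trend. The p53 list gave 8 with no minimum level, and quiescence genes gave 2 with a pseudocount of 0.1 and 2 with a mean of at least 5 TPM. With 1 library left out the numbers were 0 to 2 for other brakes on CDKs, 0 to 3 for RB and E2F proteins, 0 to 4 for S-phase targets, 0 to 1 for turnover of CIP and KIP proteins, 0 to 16 for the p53 list, 0 to 5 for quiescence genes and 0 to 1 for regulators of the Cdkn2a locus. The cause of these differences was not tested.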
